A study of Homo sapiens with 6 samples.

Results

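The cadherin genes with a numbered symbol and the protocadherin genes were described in HGC-27 cells, an established line of undifferentiated human gastric carcinoma, with and without knockdown of ACAT2, a cytosolic acetyl-CoA acetyltransferase. Members were all protein-coding genes of the deposited table whose symbol is CDH followed by digits alone or starts with PCDH, which gave 89 of 58735 genes, 23 cadherins and 66 protocadherins. Control cells carried the vector pSIH-H1-Puro-shNC (3 libraries, shNC-1 to shNC-3). ACAT2-deficient cells carried pSIH-H1-Puro-shACAT2, with a short hairpin RNA against ACAT2 (3 libraries, shACAT2-1 to shACAT2-3). Both groups were in contact with their vector for 24 h and then kept under puromycin for 7 days, so all 6 libraries come from drug-selected populations, and the labels do not say which hairpin the shACAT2 cells carried. Total RNA was sequenced, and values of a group are given in the order of its replicate numbers. The labels do not say whether libraries of a group came from separate cultures, so n counts libraries and p-values measure only the spread between them.

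Cadherins are membrane proteins that bind their like on a neighbouring cell through calcium-dependent extracellular repeats. Classical cadherins of type I (such as E-cadherin, CDH1, and N-cadherin, CDH2) and of type II hold the actin cytoskeleton through β-catenin and α-catenin. Loss of E-cadherin is a hallmark of diffuse and undifferentiated gastric cancer, and a gain of N-cadherin is often used as a sign of epithelial-mesenchymal transition. Protocadherins lack the catenin-binding tail. Most of them lie in the α, β and γ clusters on chromosome 5, where every variable first exon has its own promoter and, in the α and γ clusters, is spliced to shared constant exons.

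The values were FPKM (fragments per kilobase of exon, put on a common scale for library depth), and the fragments behind each value were read back as whole numbers. Between 14086416 and 16067486 fragments lay on genes per library. ACAT2 itself was at 14.2, 11.7 and 12.7 FPKM in shNC and at 6.19, 5.46 and 6.05 FPKM in shACAT2. Its log2 fold change was −1.01 ± 0.10 (SE; limma on log2(FPKM + 1), adjusted p = 0.00594, or 0.0512 without shNC-3). The library shACAT2-3 stood apart from the rest, since 7477 genes had fragments in it alone, against 416 to 657 genes in each other library. Genes silent elsewhere gave 0.778 fragments per kilobase there and 0.0508 to 0.0809 in the others, so counts of a few fragments in shACAT2-3 were not read as expression. A pair of control libraries, shNC-2 and shNC-3, was unusually alike, with a chi-square of 1.73 per gene against 12.1 to 46.0 in other pairs within a group. Of 12 gastric and general epithelial markers, 11 stayed under 1 FPKM in every library, TFF1 and GKN1 had no fragment in any library, and MUC1 alone was above 1 FPKM. The 5 fibroblast markers, COL1A1 and COL3A1 among them, summed to 301 to 335 FPKM in shNC and 439 to 531 FPKM in shACAT2. With limma 3 of the 4 tested rose, where 3.3% of all 13832 genes were called higher. All 3 calls were lost when shACAT2-2 or any single shNC library was left out. That of LUM was also lost with either scaling and without shACAT2-3. On fragments 3 of 5 tested were called higher, where 3.88% of all 16299 genes were. COL1A1 (log2 fold change 0.93, adjusted p = 0.00133, limma-voom) was kept there with any single library left out. The calls of COL3A1 and DCN were lost without shACAT2-2 or any single shNC library. The 4 endothelial markers summed to 0.0126 to 0.0366 FPKM in shNC and 0.0617 to 0.547 FPKM in shACAT2, with the highest sum in shACAT2-3, and the 4 leukocyte markers summed to 0.918 to 1.28 FPKM over all libraries.

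Which cadherin dominated was asked first. A pair of type II cadherins made up most of the FPKM summed over the 23 numbered cadherins. These were CDH6 (K-cadherin, known from the developing kidney, chr5:31193750-31329146, plus strand) and CDH24 (chr14:23047062-23057538, minus strand). Other genes of the cadherin superfamily, outside the members, reached similar levels. CLSTN1, FAT1 and DSG2 averaged 29.5, 25.2 and 18.3 FPKM in shNC and 30.7, 16.0 and 10.5 FPKM in shACAT2. On the FPKM scale, CDH6 was at 15.6, 19.2 and 20.1 in shNC and at 18.1, 25.4 and 23.7 in shACAT2. CDH24 was at 20.7, 17.8 and 17.1 FPKM in the shNC libraries and at 24.5, 19.6 and 19.1 FPKM in the shACAT2 libraries. The groups overlapped for both genes.

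Together both genes held 85.3% to 87.4% of the summed FPKM of the 23 cadherins in shNC and 87.7% to 92.0% in shACAT2. Which of the pair led differed between libraries: CDH24 was above CDH6 in shNC-1 and shACAT2-1 (CDH6 over CDH24 0.754 and 0.740), and CDH6 was above CDH24 in the other 4 (ratios of 1.08 to 1.30). By group means CDH24 stood at 18.5 ± 1.90 and CDH6 at 18.3 ± 2.38 FPKM in shNC (SD, n = 3), so their order lay within the spread. In shACAT2 the means were 22.4 ± 3.80 FPKM for CDH6 and 21.1 ± 2.98 FPKM for CDH24 (SD, n = 3), again within the spread. In fragments CDH6 was far ahead, with 2954 to 5227 per library against 1076 to 1394 for CDH24, because its exons span 12379 bases and those of CDH24 span 3748.

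Neither gene passed the test between groups. The log2 fold change was 0.27 for CDH6 (95% interval −0.10 to 0.65, adjusted p = 0.349, limma) and 0.17 for CDH24 (−0.14 to 0.49, adjusted p = 0.482). With the replicate number as a block, CDH6 passed in the fit on fragments (log2 fold change 0.24, adjusted p = 0.0468), and it also passed there without shACAT2-1 (0.42, adjusted p = 0.0470). Of the exon bases of CDH6, 1109 are shared on the same strand with the genes AC113386.1 and DUX4L51.

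**Figure D1:**
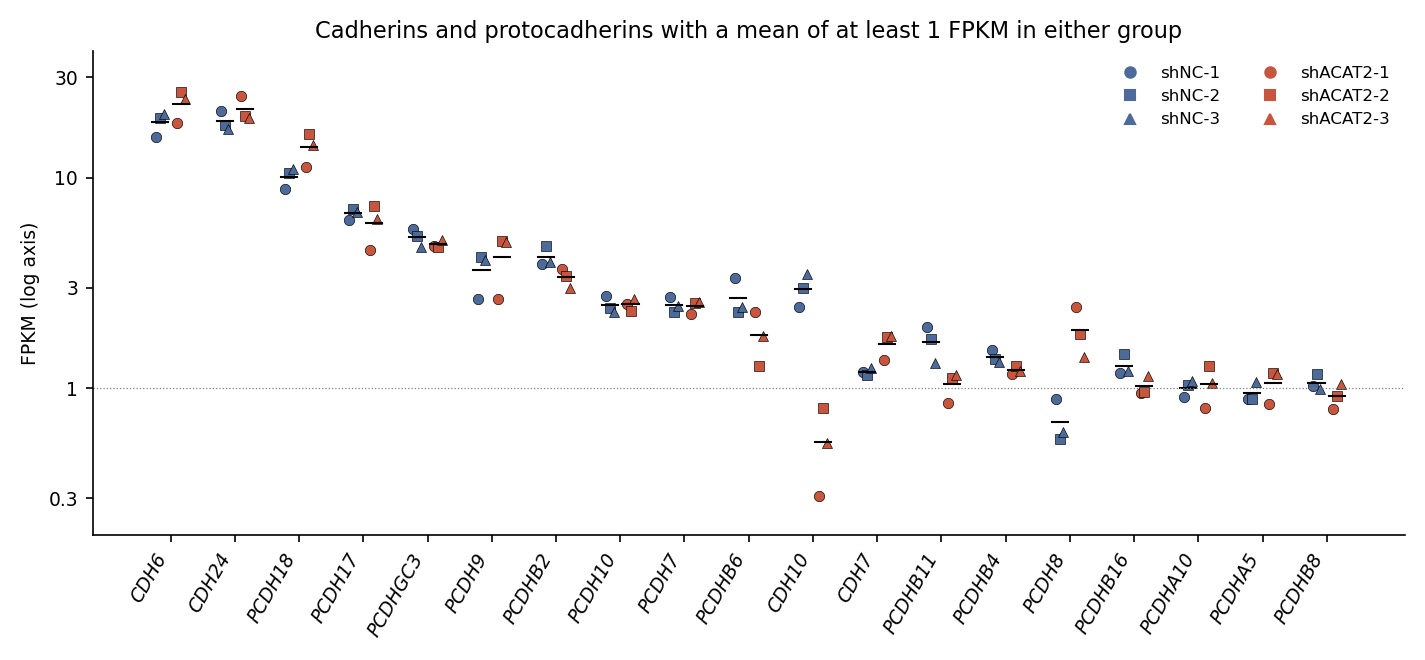
FPKM (log axis) of the 19 cadherin and protocadherin genes that averaged 1 FPKM or more in some group, in each of the 3 shNC libraries (blue) and 3 shACAT2 libraries (red), with horizontal bars for the group means and a dotted line at 1 FPKM. CDH6 and CDH24 lie near 20 FPKM in both groups, and CDH10 is the gene whose groups lie farthest apart.

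The next level down was occupied by CDH10, a type II cadherin known from the brain (chr5:24487100-24644978, minus strand), and here the groups parted. It was at 2.43, 2.98 and 3.47 FPKM in shNC, from 136, 177 and 219 fragments. In shACAT2 it was at 0.306, 0.805 and 0.546 FPKM, from 17, 49 and 30 fragments. Every shACAT2 library lay below every shNC library, and CDH10 went from rank 3 to rank 5 of the 23 cadherins by mean FPKM. CDH10 fell, with a log2 fold change of −1.36 ± 0.17 (SE, adjusted p = 0.0106, limma), and on fragments with limma-voom of −2.55 ± 0.35 (SE, adjusted p = 0.00449), which is 5.86-fold lower. Adding 1 FPKM before taking logs shrinks the first value, since the gene was near 1 FPKM. The limma call was lost without shNC-2 (adjusted p = 0.0671), without shNC-3 (0.0732) and with those 2 libraries as 1 averaged sample (0.0651). The limma-voom call was kept in each of these settings. CDH10 shares no exon base with another gene, and the rate of silent genes in shACAT2-3 gives 2.85 fragments for its length, against the 30 counted there.

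CDH7, a type II cadherin known from migrating neural crest, was the other cadherin above 1 FPKM. It was at 1.196, 1.150 and 1.241 FPKM in shNC and at 1.36, 1.75 and 1.77 FPKM in shACAT2, so the groups did not overlap. The difference did not pass the test (log2 fold change 0.25 ± 0.12 SE, adjusted p = 0.259, limma). On fragments it passed with the replicate block (adjusted p = 0.0320) and without shACAT2-1 (0.0173), and not as fitted (0.197).

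The type I cadherins were scarce: all 5 summed to 0.721 to 0.954 FPKM in shNC and 1.32 to 1.79 FPKM in shACAT2. CDH1, the E-cadherin gene (chr16:68737225-68835548, plus strand), was at 0.222, 0.120 and 0.141 FPKM in shNC. That came from 21, 12 and 15 fragments. In shACAT2 it was at 0.608, 0.828 and 1.15 FPKM, from 57, 85 and 107 fragments. All 3 shACAT2 libraries were above all 3 shNC libraries, and the lowest shACAT2 library held more fragments than the 3 shNC libraries together, 57 against 48.

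CDH1 rose in the fit on fragments, with a log2 fold change of 2.32 ± 0.40 (SE, 95% interval 1.41 to 3.24, adjusted p = 0.0127, limma-voom), or 5.01-fold. It lay under the filter of the fit on FPKM, which asks for a mean of 1 FPKM in a group. With 10 or more fragments asked of all libraries instead, limma on FPKM called it (log2 fold change 0.67, adjusted p = 0.00985). The call on fragments was lost without shNC-2 (adjusted p = 0.0708), without shNC-3 (0.0758) and without shACAT2-2 (0.0507). It was kept without shACAT2-3 (log2 fold change 2.07, adjusted p = 0.0142). The rate of silent genes would give 4.81 fragments in shACAT2-3 for a gene of this length. Even after its rise, CDH1 held only 1.31% to 2.36% of the summed cadherin FPKM in shACAT2, against 0.282% to 0.536% in shNC. The 12 epithelial markers summed to 2.88 to 3.38 FPKM in shNC and 4.50 to 5.22 FPKM in shACAT2, most of it MUC1, whose log2 fold change was 0.55 (adjusted p = 0.0245, limma, and 0.0937 to 0.132 when shACAT2-2 or any single shNC library was left out). KRT8 and CLDN18 were also tested on fragments and did not pass, with log2 fold changes of 0.299 and −0.557 (limma-voom). CLDN18 thus went the other way, from a mean of 0.362 FPKM in shNC to 0.265 FPKM in shACAT2, and the groups overlapped for both genes. EPCAM stayed at or under 0.212 FPKM and KRT18 and KRT19 at or under 0.0856 FPKM in every library. The part of these markers, and of the higher fibroblast markers, in the CDH1 difference was not tested, and in bulk RNA more cells with CDH1 and more CDH1 RNA per cell cannot be told apart. Of its exon bases, 347 are covered on the opposite strand by AC099314.1, and without a stated strand setting reads of the pair cannot be separated.

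CDH2, the N-cadherin gene (chr18:27950966-28177446, minus strand), was practically unread in both groups. It had 2 fragments in each shNC library and 0, 0 and 6 in shACAT2, so 6 in all in either group. The silent-gene rate gives 3.85 fragments for its length in shACAT2-3. Both groups lie near the limit that a count of 0 allows (3 fragments a library, for counting error alone), so no fold was computed and no difference was detectable at this depth. CDH3, the P-cadherin gene that neighbours CDH1 on chromosome 16, had 33, 41 and 25 fragments in shNC and 29, 27 and 33 in shACAT2. The groups overlapped, and its log2 fold change was −0.12 (95% interval −0.78 to 0.53, limma-voom).

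**Figure D2:**
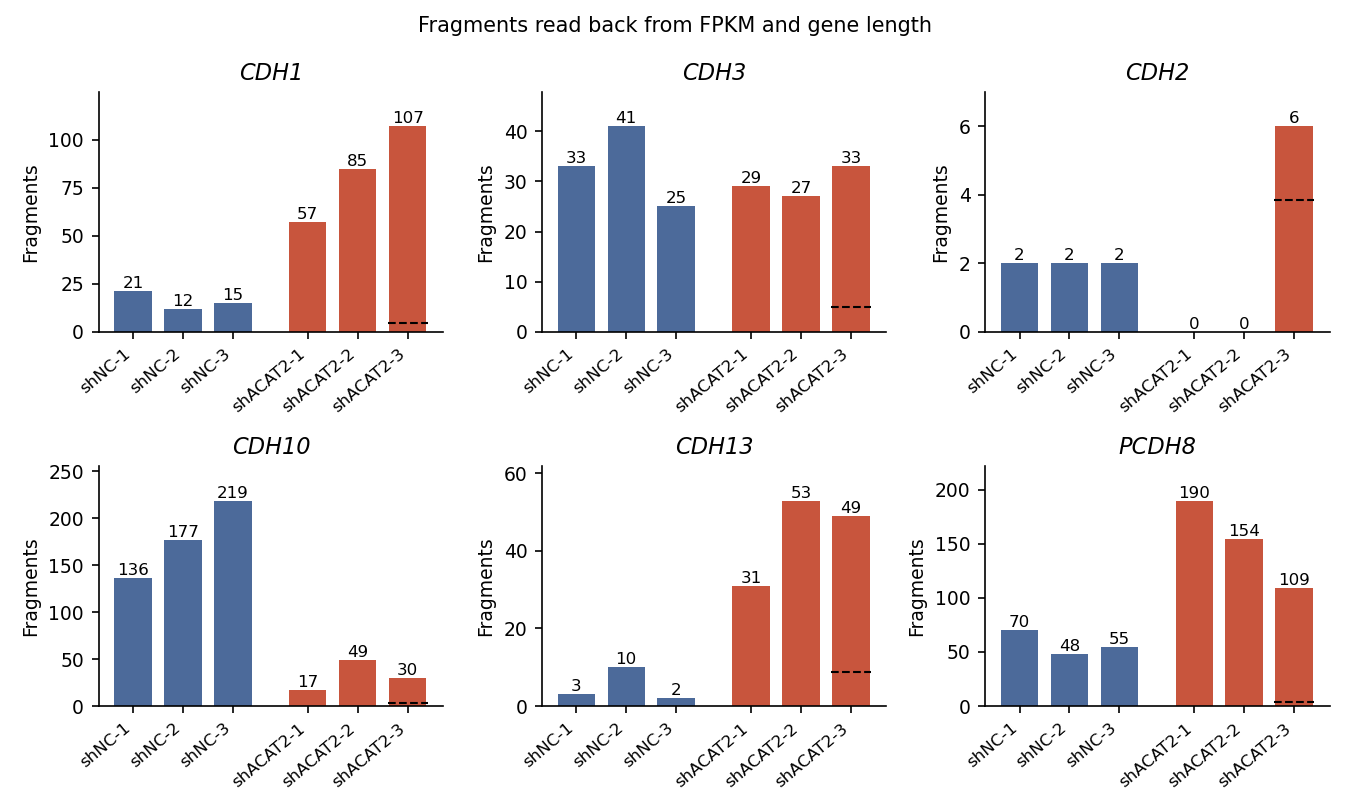
Fragments per library read back for CDH1, CDH3, CDH2, CDH10, CDH13 and PCDH8 (bars from 0, the count above each; blue shNC, red shACAT2; each panel has its own axis). The dashed line on shACAT2-3 is the number that genes silent in the other libraries would give there for the same length, 4.81 for CDH1 and 3.85 for CDH2.

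CDH13 encodes T-cadherin, which has no cytoplasmic tail and is held in the membrane by a lipid anchor (chr16:82626803-83800640, plus strand). It had 3, 10 and 2 fragments in shNC and 31, 53 and 49 in shACAT2. The groups did not overlap, and by level the gene stayed low, at 0.0277 ± 0.0240 FPKM in shNC and 0.253 ± 0.0613 FPKM in shACAT2 (SD, n = 3). CDH13 rose, with a log2 fold change of 3.28 ± 0.57 (SE, adjusted p = 0.0128, limma-voom, 95% interval 1.99 to 4.57). The call was lost without shNC-1 (adjusted p = 0.0642) and without shNC-3 (0.0758), and kept without shACAT2-3 (3.13, adjusted p = 0.0210), where the silent-gene rate gives 8.71 fragments. Its fold rests on 15 fragments over the shNC group. CDH13 reached the filter of 10 fragments in 3 libraries only through shACAT2, the group where it was high, so its passing the filter is not independent of its difference. With 10 or more fragments asked of all libraries it was not tested.

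The remaining cadherins were low in all libraries, and 10 of the 23, CDH2 included, had too few fragments to be tested, with at most 9 in a library. CDH4 (R-cadherin), CDH15 (M-cadherin of muscle), CDH8, CDH18, CDH23 and CDH26 were tested on fragments and none passed, with adjusted p-values of 0.248 to 0.918. CDH5, the VE-cadherin of endothelium, had 2 fragments in shACAT2-3 and none elsewhere. CDH11, the OB-cadherin of mesenchymal cells, had 9 fragments in shACAT2-3, 1 in shACAT2-1 and none in the other libraries. Low counts of this kind were common in shACAT2-3: 19 of the 89 genes were under 10 fragments in every other library, and 16 of these 19 were highest there by FPKM.

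Among the 10 δ protocadherins, which lie outside the clusters and are known from axon guidance and cell sorting in the brain, 6 averaged 1 FPKM or more. PCDH18 led them (chr4:137518918-137532494, minus strand), with 8.78, 10.5 and 11.0 FPKM in shNC. It was at 11.2, 16.2 and 14.3 FPKM in shACAT2. The lowest shACAT2 library lay just above the highest shNC library. The log2 fold change was 0.42 ± 0.15 (SE, adjusted p = 0.158, limma), and it passed with the replicate block (adjusted p = 0.0424) as well as, on fragments, with the block (0.00660) and without shACAT2-1 (0.0126).

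PCDH8, a δ2 protocadherin induced by activity at synapses (chr13:52842889-52848641, minus strand), was read 70, 48 and 55 times in shNC. The shACAT2 libraries gave 190, 154 and 109 fragments. Each of these exceeded every shNC library, and the mean level went from 0.694 ± 0.169 to 1.88 ± 0.514 FPKM (SD, n = 3). PCDH8 rose on fragments, with a log2 fold change of 1.38 ± 0.23 (SE, adjusted p = 0.0121, limma-voom). In the fit on FPKM the adjusted p was 0.0546 (log2 fold change 0.75). PCDH8 passed there with the replicate block (0.0344), with upper-quartile scaling (0.0428), with library-total scaling (0.0425) and without shACAT2-3 (0.0437). It also passed there with 10 or more fragments asked of all libraries (0.0177). The call on fragments was lost without shNC-2 (adjusted p = 0.0747), without shNC-3 (0.0776), without shACAT2-2 (0.0533) and with shNC-2 and shNC-3 merged by averaging (0.0537).

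PCDH17, the second of the δ genes by level, was at 6.32, 7.05 and 6.90 FPKM in shNC and at 4.52, 7.31 and 6.33 FPKM in shACAT2. PCDH9, with the longest exon total among them, was at 2.65, 4.21 and 4.06 FPKM in shNC and 2.66, 4.99 and 4.94 FPKM in shACAT2. In PCDH9 the replicate 1 libraries of both groups were low, and in PCDH17 they were the lowest of their groups. PCDH10 and PCDH7 lay between 2.25 and 2.73 FPKM in all 6 libraries. None of these 4 passed either test (adjusted p from 0.598 to 0.973 with limma), and their groups overlapped. PCDH12 (an endothelial protocadherin), PCDH15 (which pairs with CDH23 in the tip links of hair cells) and PCDH20 lie in neither class, and PCDH12 led them by FPKM with 16 to 28 fragments per library.

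The 53 clustered protocadherins (15 α, 16 β and 22 γ) were counted gene by gene, and the counts show how the shared exons were treated. Every α gene shares 21.3% to 56.6% and every γ gene 27.6% to 64.4% of its exon bases on the same strand with other genes, chiefly the constant exons. PCDHGB5 had 0 to 3 fragments in every library although 2181 of its 4851 exon bases are common to all 22 γ genes, among them PCDHGC3 with 391 to 473 fragments. In the α cluster PCDHA13 had 1 to 6 fragments in a library. Fragments of the constant exons were thus not credited to each gene of these clusters. Whether some were credited to single genes such as PCDHGC3 was not tested, so levels per kilobase of a gene's own bases, given next, hold only if none were.

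On that scale PCDHGC3, a C-type γ gene, was at 141 fragments per kilobase of own bases in shNC and 126 in shACAT2, ahead of PCDH17 with 119 and 103 and behind PCDH18 with 165 and 218. On the FPKM scale PCDHGC3, at 5.69, 5.26 and 4.69 in shNC and 4.74, 4.69 and 5.07 in shACAT2, lay below PCDH17. Its groups overlapped, and the log2 fold change was −0.09 (adjusted p = 0.624, limma). The β gene PCDHB2 led its cluster with 80.5 and 61.7 fragments per kilobase of own bases. The α genes PCDHA5 and PCDHA10 stood near 30.1 and 26.1 in shNC and 32.3 and 26.2 in shACAT2. At the other end, PCDHB1 had at most 1 fragment in a library.

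Promoters of the clusters carry a conserved element with the letters CGCT, known as a binding place of CTCF. The 250 bases before the start of 70 of the 89 genes were read from RefSeq (GRCh38.p14), and the most frequent word of 8 bases with CGCT was taken in each cluster, so the words were chosen on these genes and their frequency is a description. ATGTCGCT stood in 9 of 13 α promoters, against 0.139% of the promoters of all 27305 genes. GTGGCGCT stood in 12 of 14 β promoters, against 0.637%, and GCCGCTGT in 11 of 20 γ promoters, against 0.806%. On either strand the shares of all promoters were 0.220%, 1.14% and 1.51%, and no member held its cluster's word on the other strand. The words share the letters CGCT, so matches to them could overlap there. They lay 42 to 85, 15 to 83 and 42 to 97 bases before the start in the α, β and γ clusters. The β gene lowest by level, PCDHB1, does not hold its cluster's word, nor does PCDHB8, which averaged 1 FPKM or more in some group. Others without it include PCDHA11, PCDHGA3, PCDHGA4 and PCDHGB7. Shown are windows of genes of differing level among those that hold the word, 5′ to 3′ on the plus strand, with the word in capitals.
PCDHA5 (chr5:140821543-140821572): tcatccacatgATGTCGCTggacaccggaa
PCDHA10 (chr5:140855842-140855871): aaagccaccggATGTCGCTgtcgtccacaa
PCDHA4 (chr5:140806980-140807009): ggagccacatgATGTCGCTctttaccacaa
PCDHB2 (chr5:141094545-141094574): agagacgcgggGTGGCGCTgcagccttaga
PCDHB4 (chr5:141121724-141121753): caagacgcaggGTGGCGCTgcaggctaagt
PCDHB5 (chr5:141135180-141135205): taggacgcctgGTGGCGCTgcaggct
PCDHGC3 (chr5:141475883-141475912): ggactctgtgtGCCGCTGTcggccaatgaa
PCDHGA9 (chr5:141402717-141402746): ggactctgagcGCCGCTGTtgatcaactct
PCDHGB5 (chr5:141397866-141397895): tgactctgggcGCCGCTGTtggccaaagtg

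Levels differed widely among genes with the same word. PCDHB2 had 80.5 fragments per kilobase of own bases in shNC and PCDHB5 1.38, PCDHA5 30.1 and PCDHA4 3.50, and PCDHGC3 141 and PCDHGB5 0.375.

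**Figure D3:**
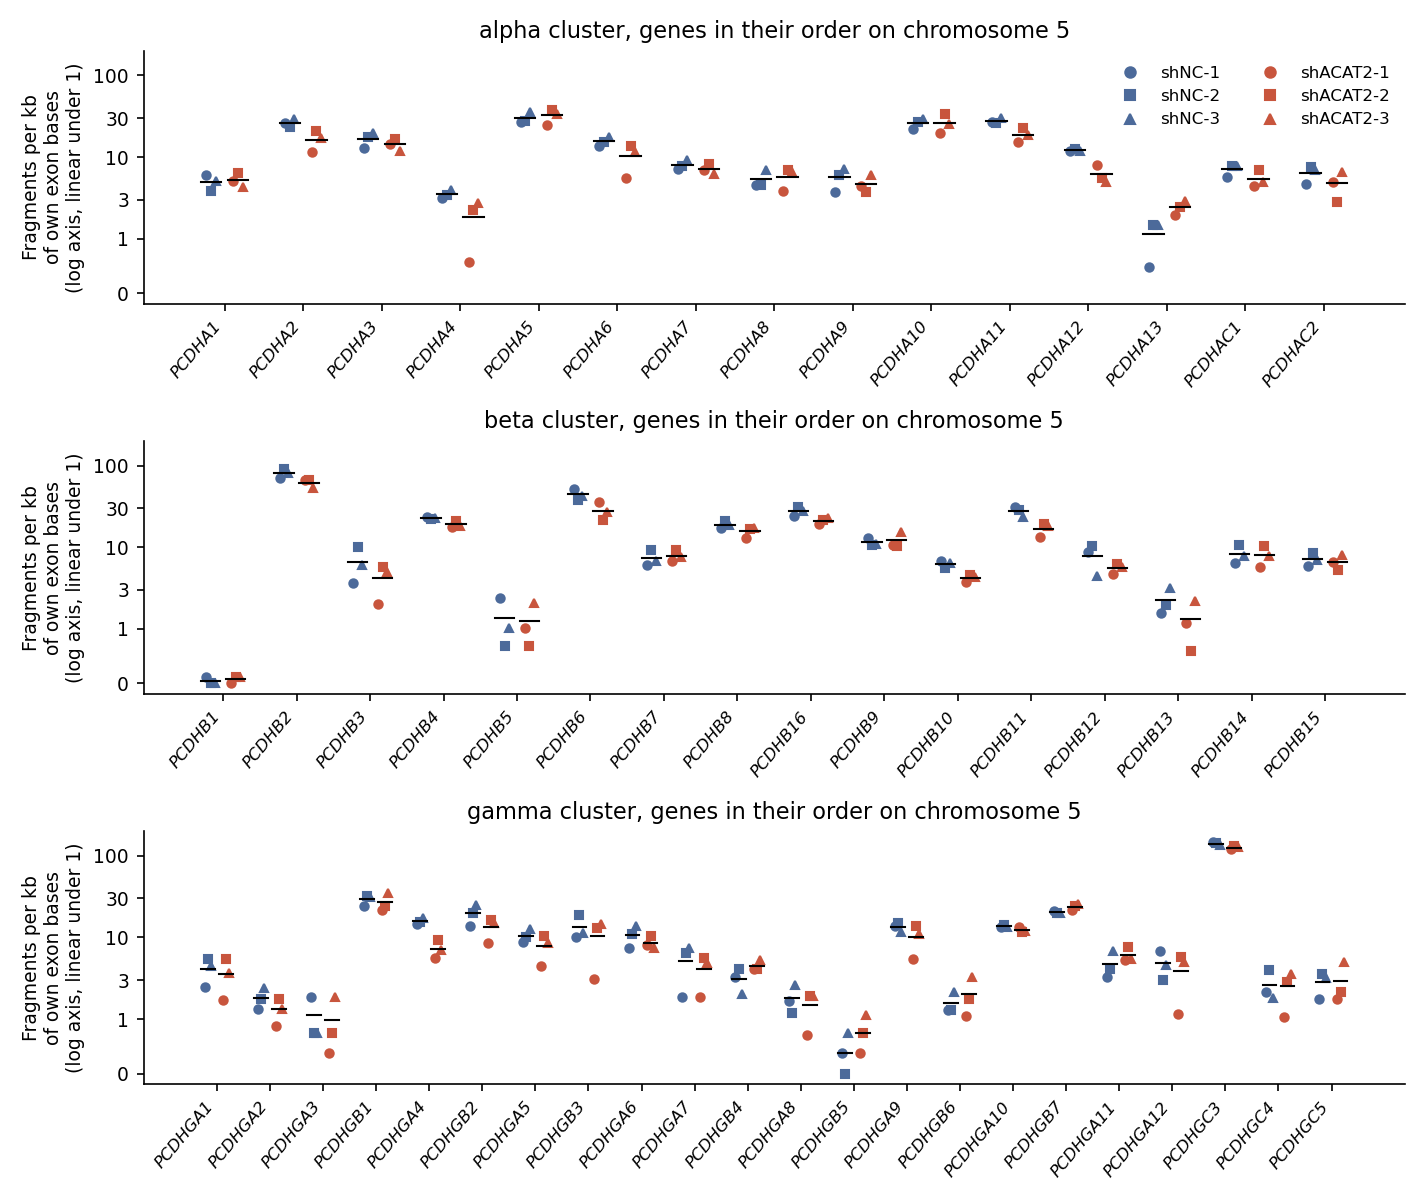
Fragments per kilobase of a gene's own exon bases (log axis, linear below 1) for the 15 α, 16 β and 22 γ protocadherins in their order along chromosome 5, per library (blue shNC, red shACAT2), with bars for group means. Levels do not follow the order of the genes, and in the β cluster the red bars lie below the blue ones for most genes, PCDHB2 at 61.7 against 80.5 among them.

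Between groups the clustered genes shifted little and mostly downward. Of the 43 tested on fragments, 8 had a positive log2 fold change, against 7257 of all 16299 genes tested. Their median was −0.29, against −0.05 over all genes tested. With limma on FPKM, the 9 clustered genes tested had a median of −0.12, against 0.02 over all genes tested. On fragments the medians were −0.32 in the α cluster (14 genes), −0.38 in the β cluster (14) and −0.28 in the γ cluster (15). Without shACAT2-3 the median of all clustered genes on fragments was −0.40, against −0.06 over all genes tested. These genes share promoter types, exons and near-identical stretches whose reads counting may split among copies, so they are not independent observations.

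PCDHGA4 was the clustered gene that passed the test as fitted, and PCDHA12 passed as well (−0.97, adjusted p = 0.0485) when 10 or more fragments were asked of all libraries. It had 39, 42 and 47 fragments in shNC and 15, 25 and 19 in shACAT2. The groups did not overlap, and PCDHGA4 fell with a log2 fold change of −1.12 ± 0.27 (SE, adjusted p = 0.0394, limma-voom). That call was lost when any library was left out (adjusted p from 0.0526 without shACAT2-3 to 0.150 without shNC-3), with shNC-2 and shNC-3 merged by averaging (0.124), and with every gene of at least 1 fragment tested (0.0839).

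In the β cluster, 6 of the 14 genes tested had all shACAT2 libraries below all shNC libraries and none had the reverse, against 14.8% and 15.3% of all genes tested on fragments. PCDHB6 was at 3.34, 2.30 and 2.43 FPKM in shNC and at 2.30, 1.27 and 1.78 FPKM in shACAT2, with shACAT2-1 just under shNC-2 (log2 fold change −0.41, adjusted p = 0.212, limma). PCDHB2 was at 3.90, 4.74 and 3.99 FPKM in shNC and 3.69, 3.40 and 2.99 FPKM in shACAT2 (−0.26, adjusted p = 0.212). PCDHB11 was at 1.95, 1.72 and 1.31 FPKM in shNC and 0.847, 1.12 and 1.16 FPKM in shACAT2 (−0.38, adjusted p = 0.173). None of the 3 passed as fitted, and all 3 passed on fragments with the replicate block (adjusted p = 0.0123, 0.0392 and 0.0283). PCDHB6 also passed on fragments without shACAT2-1 (0.0331). PCDHB4, PCDHB8 and PCDHB16, the other β genes above 1 FPKM, had log2 fold changes of −0.12, −0.10 and −0.17 (adjusted p of 0.456 to 0.680, limma), and PCDHB8 alone of these had overlapping groups. In the α cluster, 5 of the 14 genes tested lay lower without overlap and none higher, while PCDHA5 and PCDHA10 overlapped, with log2 fold changes of 0.08 and 0.02 (adjusted p = 0.781 and 0.936, limma). In the γ cluster it was 1 lower and 1 higher of 15.

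Few members passed the tests as fitted. In the fit on FPKM, 19 of the 89 genes averaged 1 FPKM or more in some group and were tested. None was called higher, where 3.3% of all 13832 genes were, and 1 (CDH10) was called lower, where 1.81% were. At an unadjusted p below 0.05, limma gave 6 of the 19 in either direction, against 23.5% of all 13832 genes, and limma-voom 13 of 65 against 25% of 16299. In the fit on fragments, 65 of the 89 genes passed the filter of 10 fragments in 3 libraries, CDH13 only through its shACAT2 libraries. Of these, 3 (CDH1, CDH13 and PCDH8) were called higher, with a background of 3.88% of 16299 genes, and 2 (CDH10 and PCDHGA4) lower, with a background of 3.86%. At an unadjusted p below 0.05 with an absolute log2 fold change above 1, limma-voom gave 6 of 65, against 4.6% of all genes. With the replicate block the counts became 6 higher and 5 lower of 65, while 11.1% of all genes were then called higher and 13.8% lower. All 3 shACAT2 libraries lay below all 3 shNC libraries in 13 of the 65, against 14.8% of all genes, and above them in 6, against 15.3%. The smallest p that an exact permutation test of 3 against 3 libraries can give is 0.1, so no single gene could pass one.

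**Figure D4:**
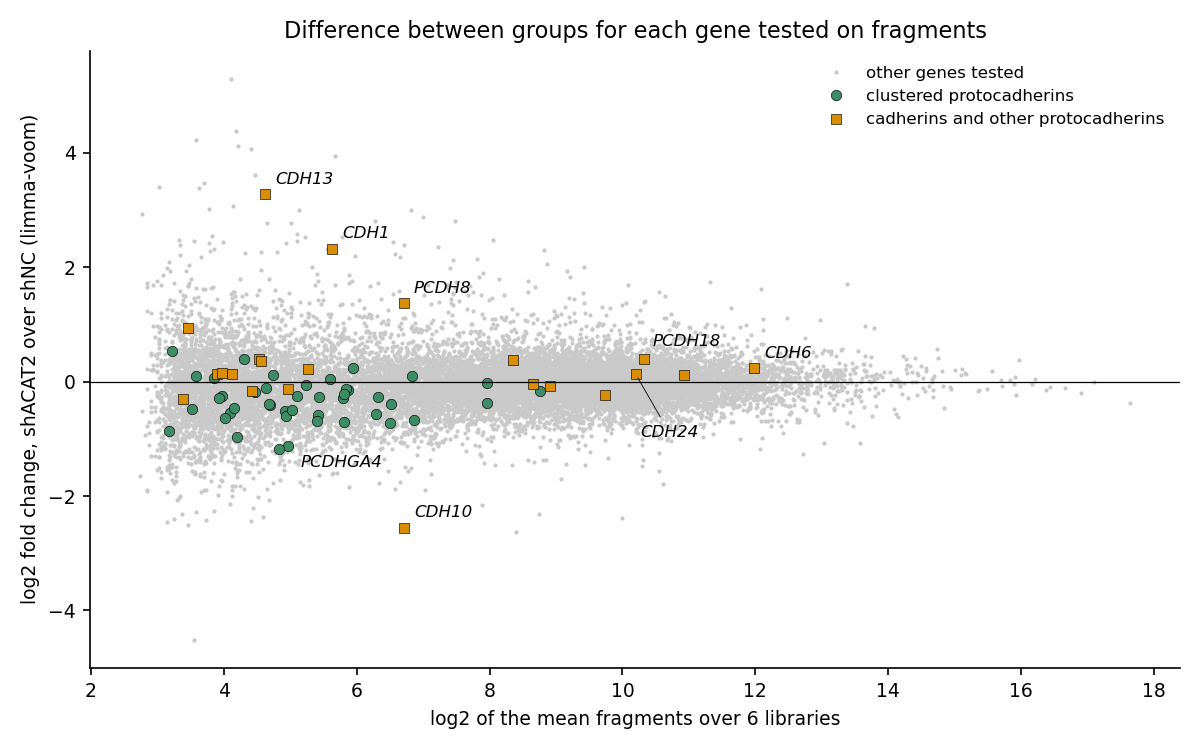
log2 fold change of shACAT2 over shNC (limma-voom) against the log2 mean of fragments over 6 libraries for 16299 genes, with clustered protocadherins in green and the other 22 cadherins and protocadherins tested in orange. The called genes CDH13, CDH1 and PCDH8 lie above and CDH10 and PCDHGA4 below the line at 0, while the members highest by FPKM, CDH6, CDH24 and PCDH18, lie close to it.

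Partners and relatives of the cadherins were taken from lists. Of 24 other genes of the cadherin superfamily, 16 were tested on fragments, with a median log2 fold change of −0.67, and 5 were called lower and 0 higher, with 9 at an unadjusted p below 0.05 (limma on FPKM called 1 of 12, CELSR2). Of all 16299 genes, 3.86% were called lower, 3.88% were called higher and 25% had an unadjusted p below 0.05. All 3 CELSR genes, seven-pass cadherins of planar cell polarity, fell. CELSR2 was at 6.82, 6.26 and 6.23 FPKM in shNC and at 3.86, 4.12 and 3.82 FPKM in shACAT2, with no overlap (log2 fold change −0.76 ± 0.11 SE, adjusted p = 0.00540, limma-voom). CELSR1 and CELSR3 had log2 fold changes of −0.59 and −0.82 (adjusted p = 0.0289 and 0.0137). CDHR2 and CDHR5, which link the tips of microvilli in the gut brush border, fell by 1.37 and 0.83 on the log2 scale (adjusted p = 0.0218 and 0.0412), CDHR2 from 40 to 59 fragments in shNC to 16 to 23 in shACAT2. The giant cadherins FAT1 and FAT4 and the desmosomal DSG2 had log2 fold changes of −0.77, −1.12 and −0.88 and did not pass (adjusted p = 0.135, 0.0702 and 0.0680). Of the 16 tested, 5 had a positive log2 fold change, and none of these passed. They were DSC1 (0.14), DSC2 (0.40), FAT2 (0.11), DCHS1 (0.32) and CLSTN1 (0.0065).

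Among 14 catenins and cadherin partners, 12 were tested on fragments and 4 passed, 2 higher and 2 lower. Of these 12, 5 had an unadjusted p below 0.05 (limma-voom). Over all 16299 genes, 3.88% were called higher, 3.86% were called lower and 25% had an unadjusted p below 0.05. VCL, vinculin, which ties α-catenin to actin, was at 38.6, 36.7 and 38.0 FPKM in shNC and 52.9, 54.6 and 61.0 FPKM in shACAT2. The groups were well apart, and VCL rose in both fits (limma log2 fold change 0.56, adjusted p = 0.0308, or 0.0596 with upper-quartile scaling). CTNNA1, α-catenin, rose on fragments (0.38, adjusted p = 0.0486), and that call was lost with upper-quartile scaling (0.0725) and without shACAT2-3 (0.0618). Of the same list, CTNND2, δ-catenin of neurons, and AFDN, afadin, fell on fragments (−0.89 and −0.55, adjusted p = 0.0193 and 0.0370). CTNNB1, β-catenin, did not pass (0.09, adjusted p = 0.582). Of the 10 known repressors of E-cadherin, 7 were tested. On fragments 2 of these had an unadjusted p below 0.05 (limma-voom), and 1 was called higher. This was SNAI2 (Slug), at 4.60, 3.66 and 3.80 FPKM in shNC and 7.34, 6.79 and 6.78 FPKM in shACAT2. SNAI2 rose, with no overlap between groups (limma log2 fold change 0.67, adjusted p = 0.0179). SNAI1, ZEB1, ZEB2 and TWIST1 were tested, had positive log2 fold changes and did not pass (adjusted p from 0.0972 to 0.902, limma-voom). TCF3 and TCF4, the rest of those tested, went the other way and did not pass (−0.07 and −0.20, adjusted p = 0.768 and 0.637). Of 12 regulators of the clustered protocadherins, among them CTCF and the cohesin subunits, 2 had an unadjusted p below 0.05 on fragments (limma-voom). Only 1 passed there: the DNA methyltransferase DNMT3B fell (−0.50, adjusted p = 0.0370). That call was lost without shACAT2-3 (adjusted p = 0.0532). With limma on FPKM DNMT3B did not pass (0.0976), except with upper-quartile (0.0378) or library-total scaling (0.0390). CTCF had a log2 fold change of −0.20 (adjusted p = 0.285, limma-voom). These 4 lists held 11 calls on fragments, of which CELSR2 alone was kept with every library left out in turn. The other 10 were lost without shNC-2, without shNC-3 and with the pair averaged, 7 were lost without shNC-1, 9 without shACAT2-2 (CELSR3 being kept) and 2 without shACAT2-3, and none was lost without shACAT2-1 or with the replicate block. The 3 limma calls, CELSR2, VCL and SNAI2, were each lost without shNC-2, shNC-3 or shACAT2-2.

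**Figure D5:**
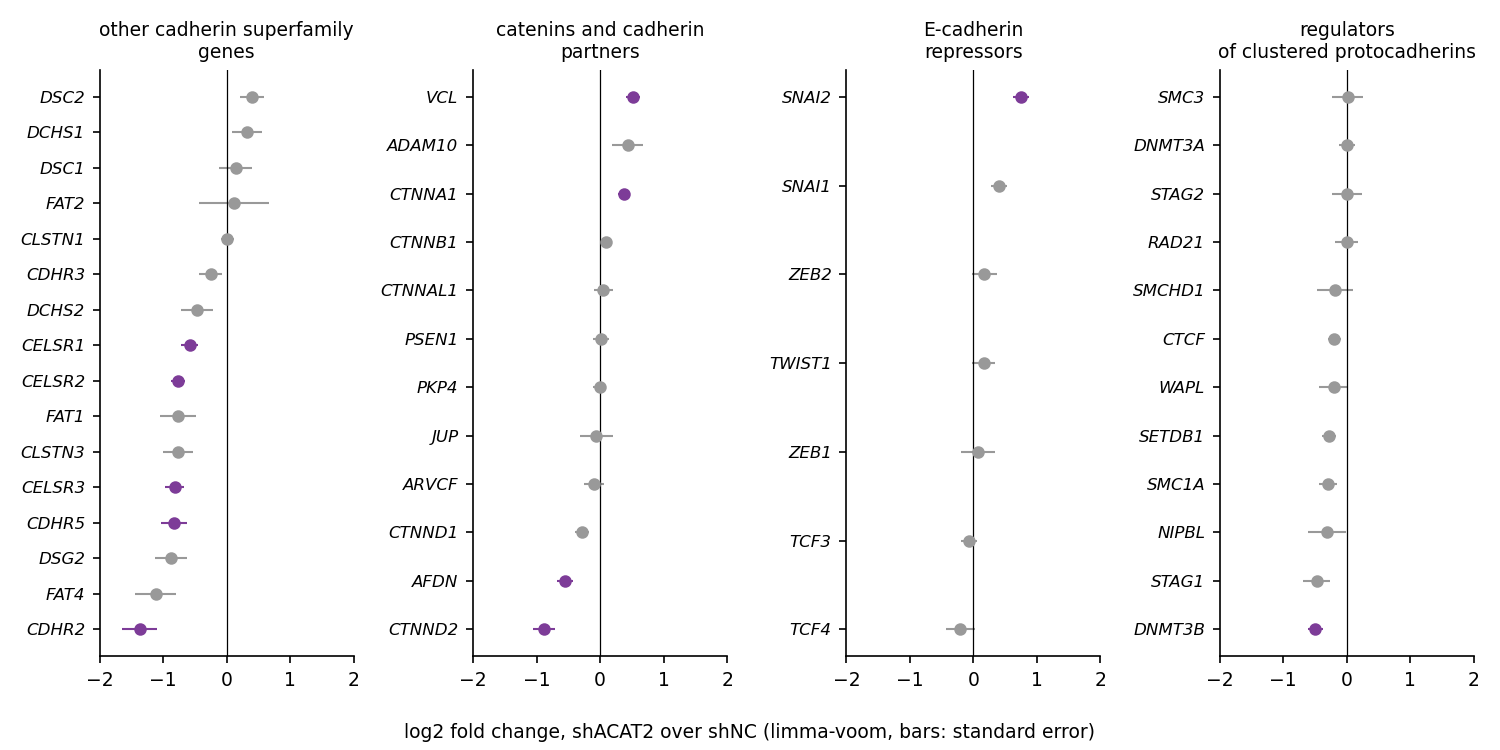
log2 fold change of shACAT2 over shNC with its standard error (limma-voom) for the tested genes of 4 lists, in purple where the adjusted p is below 0.05 and grey otherwise. The 5 purple genes of the superfamily list all lie below 0, the catenins and partners lie on both sides, and SNAI2 is the purple gene among the repressors.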

How the data were processed

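HGC-27 RNA was sequenced in 3 shNC and 3 shACAT2 libraries, and groups were read from the sample titles. The authors deposited FPKM values for 58735 genes. HISAT2 2.0.5, featureCounts 1.5.0-p3, DESeq2 1.20.0 and hg38 are named in the submitters' processing notes, while the strand setting, the treatment of reads on shared exons and the annotation release are not given in the sources used here. All 58735 gene lengths equal the exon unions of GENCODE 29, which was used for coordinates (GRCh38). Fragments were read back from FPKM and gene length, and 100% of values were whole (tolerance 0.01). The FPKM denominator was not the sum of these fragments, so library-total scaling was an alternative.

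limma 3.58.1 (R 4.3.3) was fitted with a trend on log2(FPKM + 1) over the 13832 genes that averaged 1 FPKM or more in some group, and limma-voom on the read back fragments over genes with at least 10 fragments in 3 libraries (16299 genes). Fold changes of the first are on the log2(FPKM + 1) scale and understate changes of low genes. P-values were adjusted over all genes tested (Benjamini-Hochberg, called below 0.05). Both fits were tested on simulated data with independent libraries and changes in well-read genes alone. That test does not cover genes with few fragments, the close pair of control libraries or the low counts particular to shACAT2-3. Same-numbered libraries deviated together (correlations of 0.445, 0.126 and 0.171, all above 0.1). This set apart the replicate 1 pair alone, since shNC-2 with shACAT2-3 (0.198) and shNC-3 with shACAT2-2 (0.141) deviated together too. Whether numbers 2 and 3 pair libraries is thus not settled. The replicate numbers served as a block in an alternative fit, and the fits as reported had no block. shNC-2 and shNC-3 differed by more than sampling noise and were kept as 2 samples, with their average as an alternative.

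The members and the gene lists were chosen with earlier results of these data known. Named by rule were ACAT2, CDH1, CDH2, members that averaged 1 FPKM or more in some group, members called on fragments, and the member highest by FPKM of each class. Other genes named were chosen after their values were seen. Python 3.11.15 with numpy 2.4.6, pandas 2.3.3 and matplotlib 3.10.9 served the other steps. A Y-linked protocadherin was counted among the members and is not described.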

Additional observations from a re-analysis of the deposited data

How the results depend on the processing

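The members called higher in the fit on FPKM numbered 0 as reported, 1 with upper-quartile or library-total scaling or limma-voom on the same genes, 2 with the replicate block or 10 or more fragments in all libraries, 3 with limma-voom on at least 10 fragments in 3 libraries, and 0 to 1 with a library left out. Those called lower numbered 1, 2 with 10 or more fragments in all libraries or under limma-voom on the wider set, 0 with shNC-2 and shNC-3 merged by averaging, and 0 to 1 with a library left out (0 without shNC-2 or shNC-3). On fragments, the 3 members called higher became 6 with the replicate block and 0 to 6 with a library left out (0 without shNC-3, 1 without shNC-2 or shACAT2-2, 6 without shACAT2-1). The 2 called lower became 5 with the block, 3 with 10 or more fragments in all libraries (PCDHA12 added), 1 with genes of at least 1 fragment or with shNC-2 and shNC-3 merged by averaging, and 1 to 2 with a library left out. Leaving out a library also removes a residual degree of freedom. Beyond these counts and the calls given beside each gene, the block changed no call of a member.

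Signs turned for 5 genes whose adjusted p was 0.598 or more. With a library left out, PCDH17 ran from −0.29 to 0.011 (positive without shACAT2-1), PCDH9 from −0.019 (without shNC-1) to 0.38, PCDH7 from −0.054 to 0.033 (without shNC-1; 0.030 without shACAT2-1), PCDH10 from −0.030 to 0.059 and PCDHA10 from −0.056 to 0.11. PCDH10 was at −0.033 with upper-quartile scaling, −0.029 with library-total scaling, −0.043 with limma-voom in either filter, −0.018 with shNC-2 and shNC-3 merged by averaging, −0.0063 without shNC-2, −0.030 without shNC-3 and −0.022 without shACAT2-3. PCDHA10 was at −0.0026 with upper-quartile scaling, −0.016 and −0.017 with limma-voom on the same and the wider set, −0.012 without shNC-1 and −0.056 without shACAT2-2. The cause was not tested.

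Depth limits 24 members, which did not reach 10 fragments in 3 libraries.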

Other observations

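Pseudogenes of the β cluster lie between its coding genes and were read as well. PCDHB17P had 65, 43 and 47 fragments in shNC and 32, 47 and 36 in shACAT2, so the groups overlapped (log2 fold change −0.41, adjusted p = 0.367, limma-voom). PCDHB18P had 15, 15 and 25 fragments in shNC and 7, 10 and 10 in shACAT2, without overlap, and did not pass the test (−0.97, adjusted p = 0.144). Fragments on near-identical stretches of these copies could have been counted for either a pseudogene or a coding gene.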
